A study of Rattus norvegicus with 129 samples.

Results

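Asns, Phgdh, Psat1, Psph, Atf4, Ddit3 and Trib3 are a set of 7 genes of amino acid supply and of the ATF4 stress response, followed here across 31 groups of rat livers and among 14372 genes that the arrays name. The genes were chosen on values of these same arrays, so every difference between a treated group and its control is given for them as a description with no test. Every probe set whose array annotation names 1 of the genes was taken. The older array of 3 studies has 11 such probe sets of 8799, for 5 of the genes, and none names Atf4 or Psph. Both newer arrays have 9 such probe sets, of 31099 and of 15923, for all 7 genes. No probe set of the genes names another gene as well.

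The data were intensities of 129 one-colour arrays, each of 1 rat liver, from 5 studies. Phenobarbital (PB), an activator of the receptor CAR, and pregnenolone carbonitrile (PCN), an activator of the rat receptor PXR, were given by gavage at 100 mg/kg to male and female Sprague-Dawley rats, against vehicle (methylcellulose with Tween 80). Those livers were taken 6 h or 24 h after 1 dose, or 24 h after 5 daily doses, with 5 rats in each of 18 groups. The dithiolethione D3T, an activator of NRF2, was fed at 600 mg/kg diet to female Sprague-Dawley rats 4 weeks old, against the same diet without it (4 rats each). The perfluorinated sulfonate PFOS was given at 5 mg/kg/day for 3 weeks to female Sprague-Dawley rats 60 days old, against Tween 20 vehicle (2 rats each). PFOA, a carboxylate of the same perfluorinated kind, was given at 20 mg/kg/day and PFOS at 10 mg/kg/day to male Sprague-Dawley rats 10 weeks old, against a 0 mg vehicle (3 rats each), for a time that the labels used here do not state. Wy-14643, a PPARα agonist, was given at 60 mg/kg/day to male Wistar Hanover rats for 1, 3 or 7 days, against carboxymethyl cellulose (3 rats each), and the label of Wy-14643 rat 06 on day 3 states no dose. All animals were unmodified laboratory strains, and no source states that livers were pooled.

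When amino acids run short or unfolded protein builds up in the endoplasmic reticulum, kinases phosphorylate the translation factor eIF2α, which slows general translation while the mRNA of ATF4 is translated more. ATF4 is a transcription factor that pairs with C/EBP proteins on a composite DNA element and raises genes of amino acid synthesis, amino acid uptake and tRNA charging. Its own activity is set largely by translation, so its mRNA level is no full measure of it. Asparagine synthetase, made by Asns, is a long-studied target whose liver mRNA is known to respond to protein shortage.

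A promoter window of each gene was read from RefSeq (GRCr8), 300 bases long and ending 50 bases after a gene start, and searched on both strands for the core of that composite element, TGATGNAA. The 2 windows below are those of the genes that the results turn on, Asns and Trib3, written 5′ to 3′ on the strand of the gene, with the match in capitals.
Asns promoter, chr4:36769366-36769665, minus strand: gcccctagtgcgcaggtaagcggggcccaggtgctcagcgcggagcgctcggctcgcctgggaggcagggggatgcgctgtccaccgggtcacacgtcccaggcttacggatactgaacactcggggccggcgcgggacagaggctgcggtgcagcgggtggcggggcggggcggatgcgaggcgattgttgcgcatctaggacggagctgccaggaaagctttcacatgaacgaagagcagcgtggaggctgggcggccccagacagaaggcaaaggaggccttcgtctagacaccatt
Trib3 promoter, chr3:161275484-161275783, minus strand: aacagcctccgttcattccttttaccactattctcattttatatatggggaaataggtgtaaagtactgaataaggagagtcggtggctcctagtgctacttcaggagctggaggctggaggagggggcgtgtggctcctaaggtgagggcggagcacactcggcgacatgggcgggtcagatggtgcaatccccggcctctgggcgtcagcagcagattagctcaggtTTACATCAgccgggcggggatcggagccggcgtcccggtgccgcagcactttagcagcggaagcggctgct
Of the 7 windows, 1 held a match, that of Trib3, which begins 21 bases before the gene start and reads TGATGTAA on the other strand. The same core was in 3.98% of all 33469 promoter windows, and its stricter form TGATGCAA in 0.795% of them and in 0 of the 7. The Asns window lies within the annotated extent of the gene (chr4:36752061-36769970) and holds no match. The Psat1 window likewise lies within the extent of its gene (chr1:222623553-222646187). These letters say nothing of binding in these livers.

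Array brightness and RNA quality differed between some groups. As deposited, the mean intensity of an array ranged over 93.3 to 117.4 in D3T-fed rats, against 276.4 to 416.9 in rats on control diet, and the groups did not overlap. On day 3 of Wy-14643 it was 532.6 to 613.7 in treated rats, against 317.3 to 449.1 in vehicle rats. Arrays of a study were therefore brought to 1 distribution where their medians were uneven, which was the case in every study but the 3-week PFOS study. The ratio of 3′ to 5′ actin signal, which goes up as RNA is degraded, was 3.67 to 4.85 in the PFOS 10 mg/kg/day rats and 1.78 to 3.38 in the PFOA rats, against 1.79 to 3.16 in their vehicle rats. In Wy-14643 rats it was 1.75 to 2.02, 1.61 to 1.68 and 1.53 to 1.75 on days 1, 3 and 7, against 1.99 to 2.51, 2.07 to 2.45 and 2.33 to 3.17 in vehicle rats of the same days. In D3T-fed rats it was 1.2 to 1.68, against 1.66 to 2.25 on control diet. The part of RNA quality in the differences below was not tested. The array of vehicle male rat 1003 (6 h) was left out, because in 42.9% of 175 blocks of 50 probe sets its values matched the other arrays best when moved by 1 or 2 rows, against 0% in the other 4 rats of its group. None of the 7 hepatocyte markers measured was at 0 on all arrays of any group.

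The map of differences below gives each gene by treated group. All rats given PFOA stood above all vehicle rats for Asns, Phgdh, Psat1, Ddit3 and Trib3, as did all rats on day 7 of Wy-14643 for Asns, Psat1, Trib3 and, by less, Atf4. By the most intense probe set of each gene, the differences after PB and PCN were small apart from those of Trib3.

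**Figure D1:**
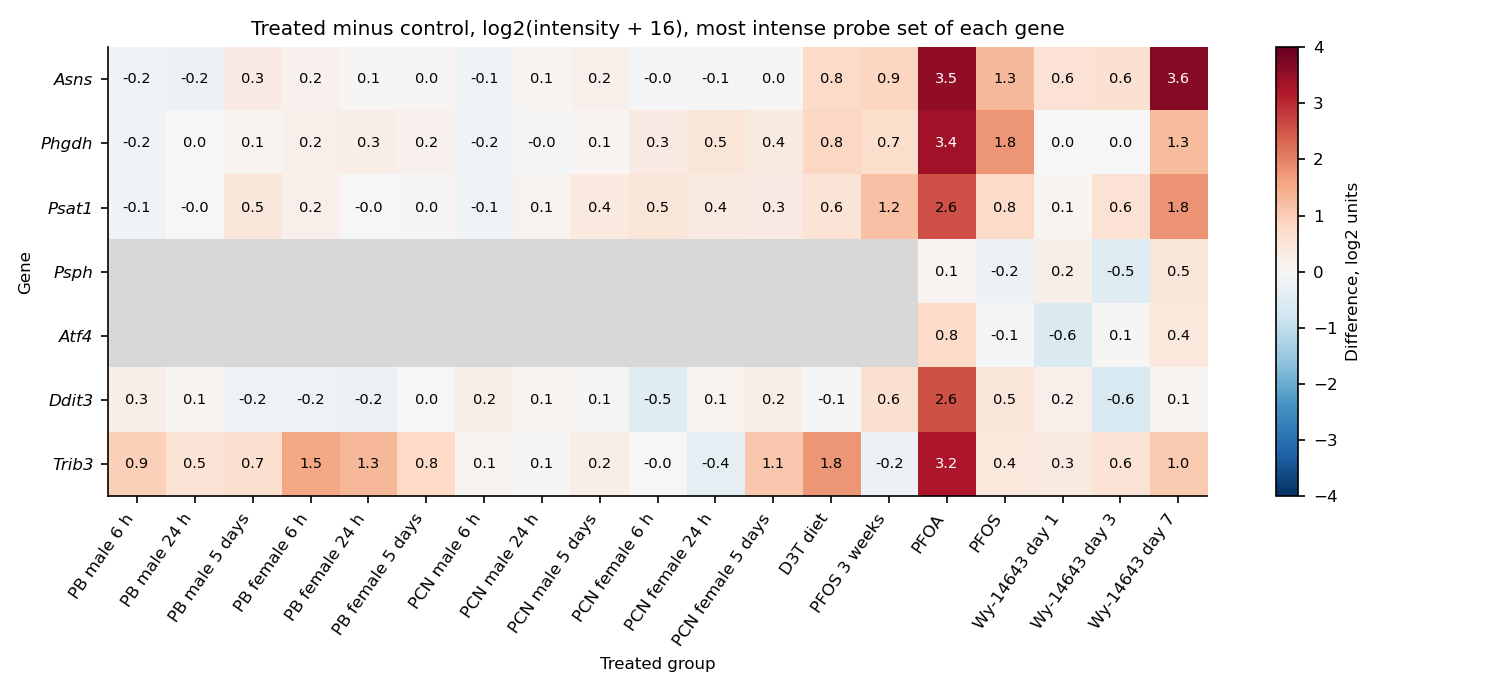
Difference between the treated group (columns) and its own control on the log2(intensity + 16) scale, for the most intense probe set of each gene (rows), where red is higher in treated rats and grey marks a gene with no probe set on that array. Asns reached 3.54 after PFOA and 3.64 after 7 days of Wy-14643, and lay between -0.24 and 0.32 in the 12 PB and PCN columns. The most intense probe set was chosen within each study. For Trib3 after 3 weeks of PFOS it is not the one of the PB, PCN and D3T columns, and it was at or under 0 on 2 of 4 arrays.

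Asparagine synthetase converts aspartate to asparagine, with glutamine as the nitrogen donor. Asns was measured at 582, 519 and 605 in the 3 PFOA livers and at 98.2, 108.9 and 113.8 in the 3 PFOS livers, against 42.7, 18.1 and 47.8 in their vehicle livers (normalised intensity throughout). The 3 groups did not overlap, and PFOA rats lay within a narrow band on this scale. As deposited, the 3 PFOA livers had 820.6, 542.4 and 665.2. On the log2(intensity + 16) scale, which understates the change of dim genes, the PFOA group exceeded vehicle by 3.54 ± 0.23 (SE, 95% interval 2.99 to 4.08) and the PFOS group by 1.29 ± 0.23 (0.74 to 1.83). The doses differ, so both are set beside vehicle and not against each other. With a pseudocount of 1 the PFOA difference was 4.05, and with 64 it was 2.67. In bulk liver, more transcript per cell and more cells that carry it cannot be told apart.

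Under Wy-14643 the level of Asns depended on the day. On day 1 the treated livers had 49.2, 69.1 and 52.2, against 43.5, 32.6 and 24.3 in vehicle livers. On day 3 they had 49.0, 61.3 and 68.5, against 30.4, 38.4 and 30.9. On day 7 they had 231.0, 492 and 626, against 19.3, 9.2 and 30.6. Treated rats lay above all vehicle rats on each day, by little on days 1 and 3 and by far on day 7. The differences were 0.57 ± 0.31 (-0.10 to 1.23), 0.61 ± 0.31 (-0.05 to 1.28) and 3.64 ± 0.31 (2.98 to 4.30) in log2 units for days 1, 3 and 7. The effect on day 7 exceeded that on day 1 by 3.07 ± 0.43, given as a description. Without day 7 rat 12, the lowest of its group, the day 7 difference was 4.04.

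In the other studies Asns was dim. D3T-fed rats had 78.0, 54.1, 62.6 and 90.8, against 34.0, 36.3, 50.3 and 23.7 in rats on control diet, a difference of 0.75 ± 0.19 log2 units with groups that did not overlap. On the values as deposited, without bringing the arrays to 1 distribution, the same difference was -0.67, so its direction rests on the normalisation. After 3 weeks of PFOS the 2 treated rats had 47.6 and 58.2, against 23.4 and 20.3 in the 2 vehicle rats, a difference of 0.86 ± 0.11. Over the 18 groups of the PB and PCN study, the group means of Asns lay between 26.4 and 45.9, and the 6 differences from vehicle ranged from -0.24 to 0.32 for PB and from -0.13 to 0.22 for PCN. Treated and vehicle rats overlapped in all 12 of those comparisons. The 2 differences at 6 h in males turned from -0.16 and -0.13 to 0.11 and 0.14 without vehicle rat 1005, which had the highest Asns of that study (72.9).

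**Figure D2:**
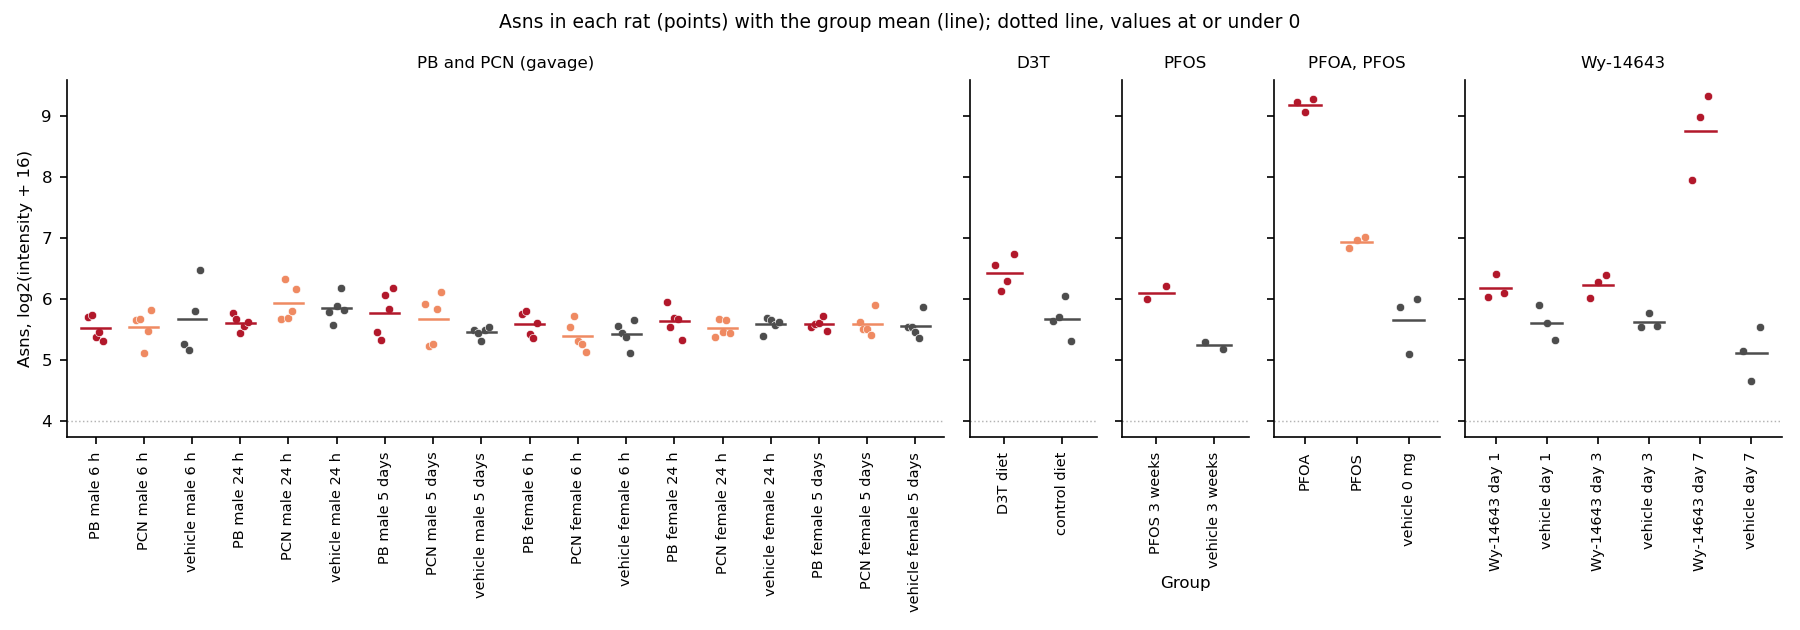
Asns in each rat (points) and the mean of each group (lines) on the log2(intensity + 16) scale, with treated groups in red or orange and controls in grey, for the 5 studies side by side. Levels can be compared within a panel. PFOA rats and day 7 Wy-14643 rats lie above every control of their panel.

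Phgdh, Psat1 and Psph make the enzymes of the 3 steps from 3-phosphoglycerate to serine, in that order. Phgdh, the first of them, had 284.5, 216.1 and 248.2 in PFOA livers and 108.9, 34.0 and 85.6 in PFOS livers, against 7.4, 0 and 28.5 in vehicle livers. All PFOA and PFOS rats lay above all vehicle rats, by 3.37 ± 0.46 and 1.75 ± 0.46 log2 units. Psat1, the aminotransferase of the second step, had 549, 500.4 and 459 in PFOA livers and 79.4, 239.4 and 116.6 in PFOS livers, against 77.3, 23.3 and 163.4 in vehicle livers. PFOA rats exceeded vehicle by 2.57 ± 0.59 with no overlap, while PFOS rats lay in part within the vehicle range (0.77 ± 0.59). Psph, the phosphatase of the last step, had 85.3, 65.6 and 48.3 in PFOA livers and 71.4, 47.9 and 33.0 in PFOS livers, against 61.8, 49.0 and 72.4 in vehicle livers. Its differences of 0.08 ± 0.26 (-0.53 to 0.70) and -0.24 ± 0.26 (-0.85 to 0.38) had intervals that hold 0.

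Under Wy-14643, Phgdh was listed at 0 in all 9 vehicle rats and in all 6 treated rats of days 1 and 3. On day 7 it was at 0, 46.4 and 41.2, so that 2 of 3 treated rats lay above the vehicle rats, and no fold is given. Psat1 had 120.2, 297.5 and 316.9 on day 7, against 46.1, 68.0 and 50.6 in vehicle rats, a difference of 1.79 ± 0.38 with no overlap, after 0.08 ± 0.38 on day 1 and 0.59 ± 0.38 on day 3. Psph had 95.5, 167.5 and 162.5 on day 7, against 93.4, 103.5 and 86.4 in vehicle rats, with overlap (0.48 ± 0.23). On day 3 it had 46.1, 87.0 and 78.6, against 113.0, 118.5 and 85.7, again with overlap (-0.52 ± 0.23), and as deposited the day 3 difference was 0.06.

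In female rats fed D3T, Phgdh had 191.7, 233.9, 250.5 and 260.6 by its brightest probe set, against 166.4, 139.5, 108.3 and 95.6 on control diet. The groups did not overlap, and the difference was 0.82 ± 0.18. Its second probe set differed by 2.27 ± 0.35, with 3 of the 4 control rats at 0, and the third was at or under 0 on every array of that type. As deposited, the brightest probe set differed by -0.98, the opposite direction, and the second by 1.07, the same direction as before. Psat1 by its brightest probe set had 36.6, 25.2, 33.6 and 55.9 in D3T-fed rats, against 20.8, 20.7, 17.6 and 21.0 (0.55 ± 0.16), and as deposited it also turned, to -0.57. After 3 weeks of PFOS, Phgdh had 83.3 and 109.4, against 43.9 and 63.4 in vehicle rats (0.69 ± 0.24) by its brightest probe set. Its second probe set had 21.6 and 24.5, against 8.6 and 25.1, with overlap (0.29 ± 0.34). Psat1 had 69.1 and 40.5, against 12.5 and 17.9 (1.16 ± 0.29). By the brightest probe sets, all treated rats lay above all controls for both genes in these 2 small studies, under D3T on the normalised scale alone. The other 3 probe sets of Psat1 overlapped in both studies.

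Atf4, Ddit3 and Trib3 make regulators of the response. Ddit3 encodes CHOP, a C/EBP-family factor induced under endoplasmic reticulum stress, and Trib3 encodes a pseudokinase that binds ATF4 and dampens it. Atf4 was bright in all livers of both newer arrays. It had 1315, 2402 and 3198 in PFOA livers and 1378.5, 988 and 1247 in PFOS livers, against 1274.5, 1173 and 1383 in vehicle livers, with overlap in both cases (0.76 ± 0.31 for PFOA, -0.09 ± 0.31 for PFOS). Ddit3 had 273.3, 618 and 1609.5 in PFOA livers and 163.8, 128.7 and 143.4 in PFOS livers, against 82.8, 98.1 and 114.7 in vehicle livers. Both treated groups lay above vehicle, PFOA by 2.55 ± 0.57 and PFOS by 0.50 ± 0.57, less than its SE. As deposited, the PFOS difference in Ddit3 was 0.28, with overlap. Trib3 by its brightest probe set had 1091, 1829.7 and 4069.8 in PFOA livers and 201.9, 332.0 and 303.9 in PFOS livers, against 117.6, 249.2 and 273.3 in vehicle livers. Its 3 probe sets differed by 3.22, 5.53 and 3.54 in PFOA rats with no overlap, and by 0.41, 2.77 and 0.77 in PFOS rats, where the brightest overlapped with vehicle. As deposited, the last of them overlapped with vehicle too in PFOS rats (0.50).

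The PFOA rats did not stand in 1 order for all genes. Rat R95472 had the highest Atf4, Ddit3 and Trib3 and rat R95470 the lowest, so that Ddit3 ran from 273.3 to 1609.5 within the group while Asns ran from 519 to 605. As deposited, Asns ran from 542.4 to 820.6, with R95470 the highest. R95470 had the highest Phgdh, Psat1 and Psph. The plot of the 7 genes in this study shows both patterns. R95470 also had the highest 3′ to 5′ actin ratio of the PFOA rats (3.38, against 2.25 and 1.78). Its array was the brightest of the group (mean 384.5, against 301.7 and 287.6). The part of both in these orders was not tested.

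**Figure D3:**
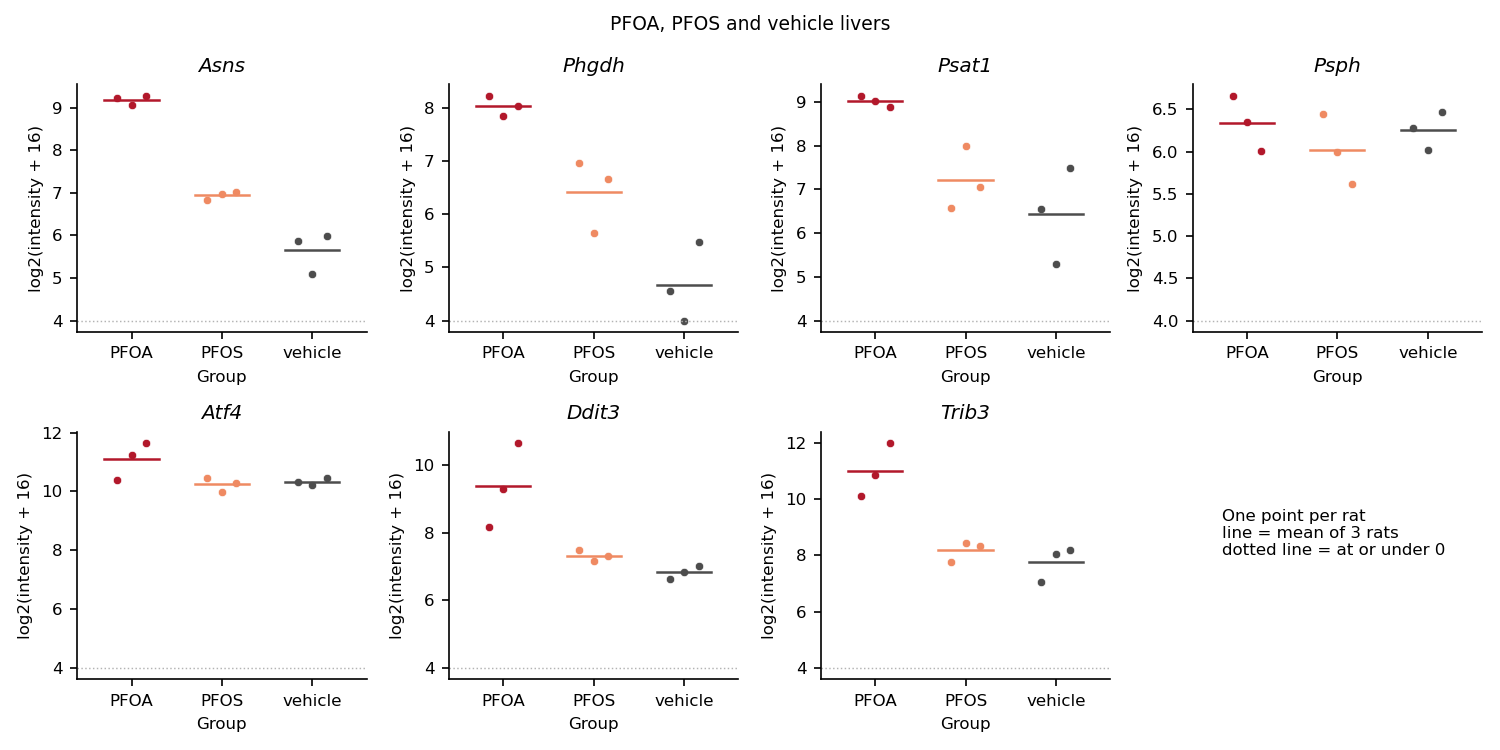
Each gene in each rat of the PFOA, PFOS and vehicle groups (points, left to right by rat number within a group) with the mean of 3 rats (lines), on the log2(intensity + 16) scale. PFOA rats lie above all vehicle rats for Asns, Phgdh, Psat1, Ddit3 and Trib3, and overlap with them for Psph and Atf4.

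On day 7 of Wy-14643, Trib3 and, by less, Atf4 stood above vehicle, and Ddit3 did not. Trib3 had 418, 391 and 218.2 by its brightest probe set, against 135.1, 194.9 and 135.6 in vehicle rats, and its 3 probe sets differed by 1.03 ± 0.22, 1.06 ± 0.13 and 2.85 ± 0.78 with no overlap. Ddit3 had 207.2, 90.6 and 134.7, against 150.9, 123.2 and 112.1, so that treated rats lay on both sides of the vehicle rats (0.09 ± 0.25, interval -0.44 to 0.62). Atf4 had 2667, 1878 and 1755, against 1437.5, 1651 and 1482, a small difference with no overlap (0.44 ± 0.17). On day 1 Atf4 was lower, with 1059, 1444.5 and 891, against 1640.5, 1512 and 1820.2 (-0.57 ± 0.17), and on day 3 it overlapped (0.06 ± 0.17). As deposited, the Atf4 difference was -0.21 on day 1, with overlap, and 0.74 on day 3, without overlap. Ddit3 was lower on day 3, with 98.5, 84.1 and 90.6, against 125.5, 207.5 and 117.1 (-0.60 ± 0.25), and that difference was 0.01 as deposited.

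The regulators on the older array were Ddit3 and Trib3. Trib3 by its brighter probe set had 246.3, 181.8, 116.0 and 252.4 in D3T-fed rats, against 22.4, 84.0, 54.7 and 34.6 on control diet (1.77 ± 0.37, no overlap). Ddit3 had 17.9, 13.5, 8.8 and 12.5, against 21.0, 8.9, 11.1 and 17.4, so the groups lay over each other (-0.06 ± 0.16). As deposited, the difference of the brighter Trib3 probe set was 0.09 and that of Ddit3 -0.77. The other Trib3 probe set had 97.2, 0.3, 56.8 and 183.5 in D3T-fed rats, against 0 in every control rat. Its difference was 2.17, and 1.45 as deposited. After 3 weeks of PFOS, Ddit3 had 18.8 and 15.9, against 8.7 and 3.3 in vehicle rats (0.61 ± 0.17), with both treated rats above both vehicle rats. Trib3 was near 0 in that study, at 32.3 and 12.8 against 0 and 2.9 by one probe set, and at 0 and 31.2 against 0 and 48.7 by the other.

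Within the day 7 rats of Wy-14643 the genes did not follow 1 order either. What they had in common was the place of rat 12, as lowest or highest. Rat 12 had the lowest Asns, Phgdh, Psat1 and Psph of the 3, and the highest Atf4, Ddit3 and Trib3, the last by all 3 probe sets. The plot by day shows the late step in Asns and Psat1 and the position of rat 12. Trib3 by its brightest probe set already lay above vehicle with no overlap on days 1 and 3 (0.35 and 0.55). Its effect on day 7 exceeded that on day 1 by 0.68 ± 0.31, and by 1.30 ± 0.18 and 3.58 ± 1.10 for its other probe sets.

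**Figure D4:**
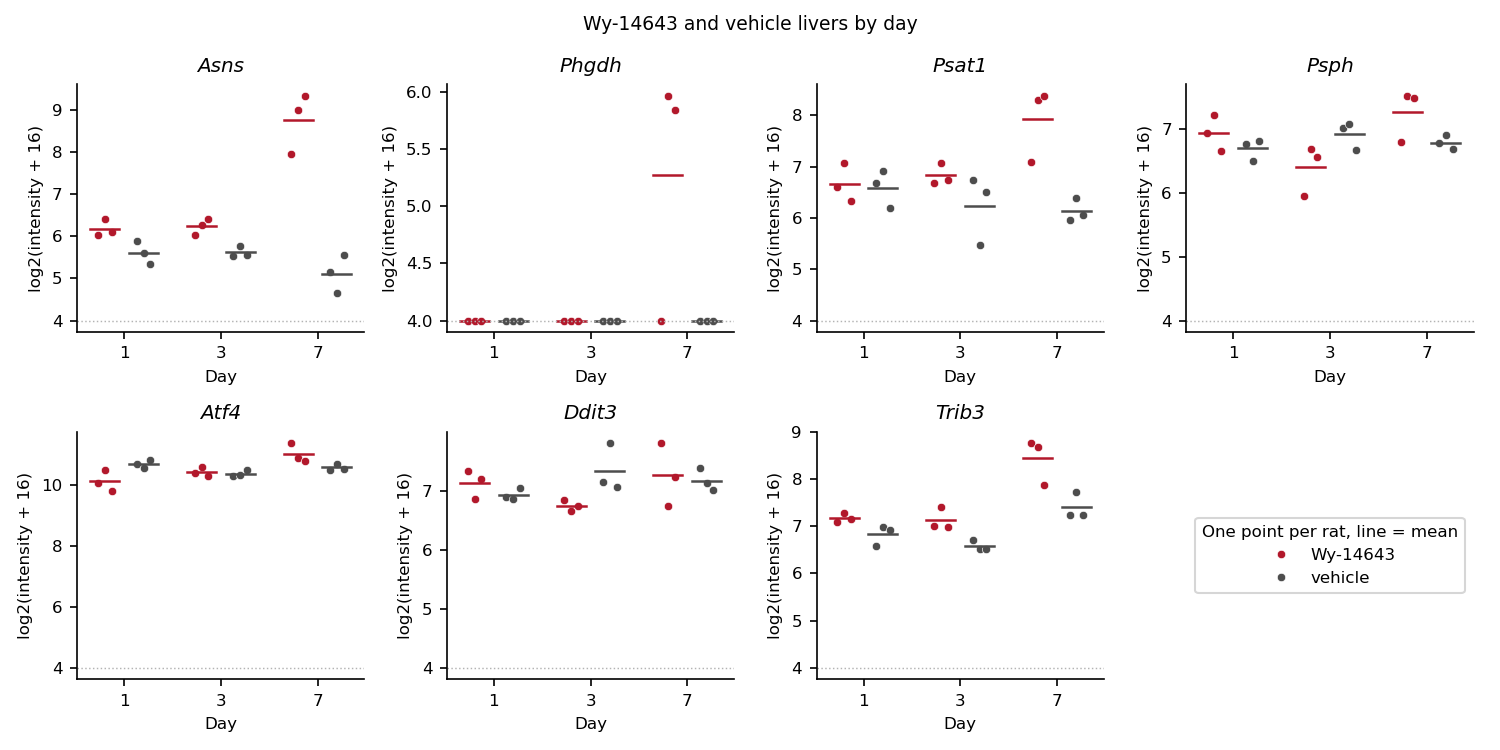
Each gene in Wy-14643 rats (red) and vehicle rats (grey) on days 1, 3 and 7, with 1 point for each rat and a line at the mean of 3, on the log2(intensity + 16) scale with the dotted line at values of 0 or less. The mean of treated rats exceeds that of vehicle rats by most on day 7 for Asns and Trib3, and Phgdh leaves the dotted line in 2 treated rats of day 7.

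The share of all probe sets that passed an adjusted p under 0.05 (limma, Benjamini-Hochberg over the whole array) sets the scale for these genes. In PFOA rats 5 of the 9 probe sets passed as higher, those of Asns, Phgdh and Trib3 (3 probe sets), where 3.23% of all probe sets did, and 0 passed as lower, where 2.83% did. In PFOS rats of that study 0 of 9 passed, where 0.283% passed as higher and 0.177% as lower. In Wy-14643 rats 0 of 9 passed on day 1 (5.94% higher and 5.52% lower overall) and 0 on day 3 (5.56% higher and 5.22% lower), and 6 passed as higher on day 7 (6.57% higher and 6.49% lower), those of Asns, Phgdh, Psat1 and Trib3. In D3T-fed rats 3 of 11 passed as higher (5.22% higher and 7.33% lower overall), 2 of Phgdh and 1 of Trib3. The 3-week PFOS study passed 0.0% of all probe sets by limma, with 421 at an unadjusted p under 0.05 and 0 with trend and robust moderation. Since the genes were chosen on these contrasts, nothing is read from the counts. By separation alone, 12.1% of all probe sets in PFOA rats, 8.68% in PFOS rats, 13.1% on day 7 of Wy-14643, 8.7% under D3T and 9.5% after 3 weeks of PFOS had every treated rat above every control, and so had 7 and 5 of 9, 6 of 9, 6 of 11 and 5 of 11 of these probe sets in the same order.

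In the PB and PCN study Trib3 was the gene with the widest range of differences, and its values are given as a description. By its brighter probe set, PB females had 72.6, 91.1, 98.4, 133.0 and 59.8 at 6 h and PCN females 26.7, 34.0, 0, 19.9 and 27.8, against 0, 18.3, 19.1, 32.1 and 46.0 in vehicle females. PB females lay above both other groups with no overlap, by 1.55 ± 0.42 over vehicle and by 1.57 ± 0.42 over PCN. At 24 h PB females had 86.6, 85.9, 64, 63.7 and 84.7 and PCN females 6.0, 18.5, 0.7, 32.3 and 15.2, against 48.9, 28.0, 0, 51.8 and 6.4 in vehicle females. PB again lay above both, by 1.32 ± 0.42 over vehicle and 1.69 ± 0.42 over PCN. After 5 days the difference from vehicle was 0.78 ± 0.42 for PB and 1.09 ± 0.42 for PCN, both with overlap.

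In males Trib3 under PB exceeded vehicle by 0.95 ± 0.45, 0.55 ± 0.42 and 0.66 ± 0.42 at 6 h, 24 h and 5 days, and under PCN by 0.12 ± 0.45, 0.05 ± 0.42 and 0.24 ± 0.42, with overlap each time. All 6 PB differences were positive, although the PB effect in females minus that in males had intervals that hold 0 at each time (0.60 ± 0.61, 0.77 ± 0.59 and 0.13 ± 0.59). The second Trib3 probe set was at or under 0 on 59 of 89 arrays, and its PB differences ran from -0.52 to 0.62, so the pattern rests on 1 probe set. Of all 132 differences of these genes in the study 1 passed, that of Trib3 in PB females at 6 h, where 1.88% of all probe sets passed as higher and 1.34% as lower, and nothing is read from it. Ddit3 differences ran from -0.22 to 0.27 under PB and from -0.48 to 0.25 under PCN. Phgdh by its brightest probe set ran from -0.15 to 0.28 under PB and from -0.17 to 0.48 under PCN, and Psat1 from -0.14 to 0.45 and from -0.13 to 0.49. The dimmer second probe set of Phgdh ran more widely, from -0.78 to 0.40 under PB and from -0.79 to 1.07 under PCN, with overlap each time.

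Comparisons among vehicle rats were not among the contrasts on which the genes were chosen, and they were tested. The same vehicle arrays served as controls in those contrasts, so the tests are not independent of the choice. Phgdh was lower in vehicle females than in vehicle males. The 15 females of the 3 times ranged from 103.1 to 222.3 with a median of 120.0, against 146.0 to 316.1 with a median of 214.6 in 14 males. The difference was -0.73 ± 0.22 at 6 h (limma, adjusted p = 0.0235), -0.67 ± 0.20 at 24 h (adjusted p = 0.0358) and -0.58 ± 0.20 at 5 days (adjusted p = 0.0809), with the groups apart at 24 h and 5 days. The first 2 passed and the third did not, where 2.91%, 2.13% and 2.57% of all probe sets passed as lower in females at the 3 times. At 6 h the call was lost without any 1 of vehicle rats 1004, 1005, 1502, 1503, 1504 and 1505 and at 24 h without any 1 of 6 rats, while the difference stayed below 0. The dimmer second probe set of Phgdh did not follow it (-0.43 ± 0.47, 0.41 ± 0.44 and -0.23 ± 0.44). No other probe set of the genes passed between the sexes. Over the 6 comparisons between times in vehicle rats, 0.85% of all probe sets passed and none of these genes did, the lowest adjusted p being 0.118, for Psat1 in males at 5 days against 24 h.

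Deviations of single rats from their group mean are free of the differences between groups. Over 89 arrays of 18 groups in the PB and PCN study, Asns deviated together with Psat1 (Pearson r = 0.66, Spearman rho = 0.58) and with Phgdh (r = 0.49, rho = 0.47), and Phgdh with Psat1 (r = 0.56). Among 3566 probe sets of above-median level, whose median r with Asns was 0.004, Phgdh stood second, and no probe set among them reached the r of Psat1, which is itself below the median level. Asns did not deviate together with Trib3 (r = -0.07) or Ddit3 (r = -0.15). Without the 2 arrays farthest from the median in Asns, vehicle male rats 1002 and 1005, r was 0.56 for Psat1 and 0.43 for Phgdh. These arrays share a normalisation and groups of 4 or 5 rats, and the correlations are given as a description. Over 18 arrays of 6 groups in the Wy-14643 study, Asns deviated with Phgdh (r = 0.73, with Phgdh above 0 in 2 rats of 1 group alone), Psph (r = 0.54) and Psat1 (r = 0.45), and opposite to Trib3 (r = -0.64), Ddit3 (r = -0.48) and Atf4 (r = -0.46). Without rats 12 and 14 of day 7, r was 0.25, 0.27 and 0.04 for Phgdh, Psph and Psat1 and -0.37, -0.27 and -0.06 for Trib3, Ddit3 and Atf4, so these values rest largely on those 2 rats. Psat1 and Ddit3 were the most opposed pair over all 18 arrays (r = -0.84).

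**Figure D5:**
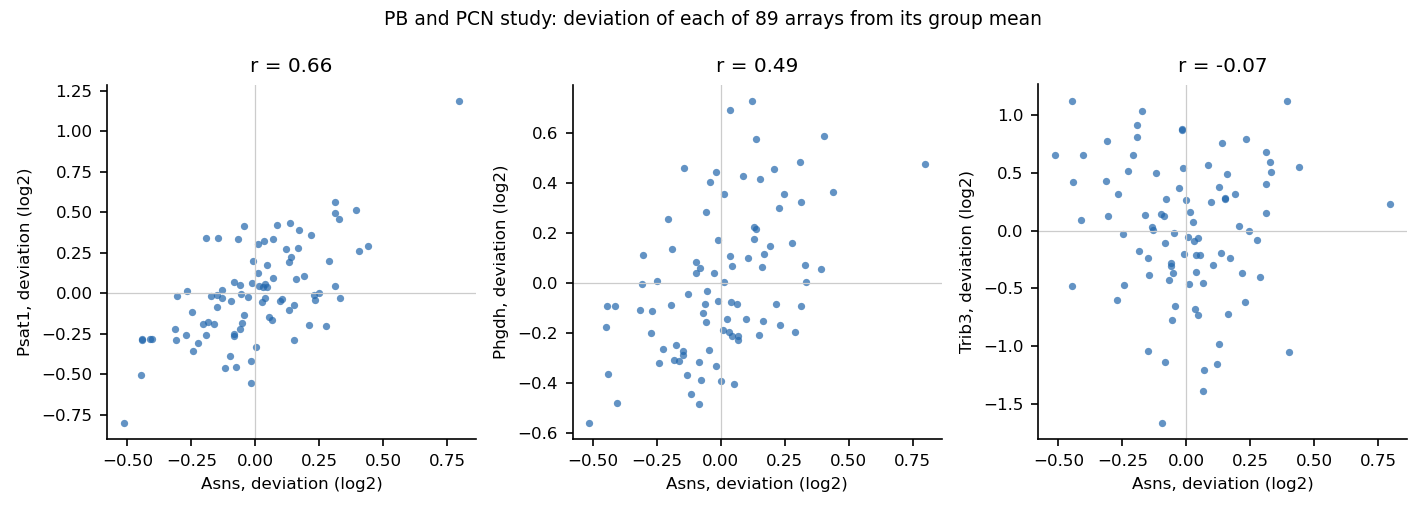
Deviation of each of 89 arrays from its group mean in log2 units, for Asns (horizontal) against Psat1, Phgdh and Trib3 (vertical), 1 point for each array. Points run along a rising diagonal for Psat1 (r = 0.66) and Phgdh (r = 0.49) and form no slope for Trib3 (r = -0.07).

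The genes most like Asns were ranked by Pearson r over all arrays of a study, among genes above the median level, so that the treatment differences take part in the likeness. In the Wy-14643 study (18 arrays, 6082 genes) they were Slc3a2 (r = 0.95), the heavy chain of several amino acid transporters, Iars1 (0.93), the isoleucine tRNA synthetase, Ndufaf4 (0.92), Scd2 (0.92) and Eif2s2 (0.92), a subunit of eIF2. In the PFOA and PFOS study (9 arrays, 9379 genes) they were Vnn1 (0.99), Dhdds (0.98), Yars1 (0.98), the tyrosine tRNA synthetase, Hdc (0.98), the histidine decarboxylase, and Whamm (0.98). In the PB and PCN study (89 arrays, 2665 genes) they were Phgdh (0.50), Ppdpf (0.48), A2m (0.48), Nenf (0.48) and Col5a1 (0.46). Of the 100 nearest genes of each study, 8 were shared by 2 studies and none by all 3. They were Atic, Hdc, Ifrd1, Lactb2, Nipal2, Phgdh, Sars1 and Yars1.

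Other genes of the pathway were read from 7 lists. In PFOA rats 12 of 71 measured genes passed as higher and 7 as lower, where 3.23% and 2.83% of all probe sets did. The median difference of the 71 genes was 0.31, against 0 over all probe sets. tRNA charging had 5 of 14 higher and 0 lower, among them Sars1 (1.59 ± 0.15), Yars1 (1.54 ± 0.18) and Iars1 (1.17 ± 0.22), and a list median of 0.57. Among factors downstream of or partnering ATF4, 2 of 6 passed as higher, Atf3 (3.85 ± 0.83) and Nupr1 (1.53 ± 0.31). Of the amino acid transporters 1 of 9 passed, Slc3a2 (2.36 ± 0.30). Secreted and growth-restraining genes had 3 of 10 higher, Gadd45a (3.11 ± 0.61), the ER degradation gene Herpud1 (1.21 ± 0.16) and the translation repressor Eif4ebp1 (1.00 ± 0.19). Of the kinases and feedback genes 1 of 7 passed, Eif2s1 (0.96 ± 0.20), which encodes eIF2α itself.

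Other pathway genes that passed after PFOA were lower. Endoplasmic reticulum chaperones had 5 of 14 lower and 0 higher, among them Sdf2l1 (-2.08 ± 0.36), Pdia4 (-1.12 ± 0.14) and Calr (-0.86 ± 0.09), with a list median of -0.42. Among the other amino acid and one-carbon enzymes 2 of 11 were lower and 0 higher, Aldh1l2 (-1.48 ± 0.13) and the cysteine-making Cth (-1.34 ± 0.15). The 12 higher genes became 7 without vehicle rat R95434 and 5 without any 1 of R95435, R95436, R95471 and R95472, and the 7 lower genes became 4 without R95436. In PFOS rats of that study 0 of 71 passed, with a median of -0.03, where 0.283% of all probe sets passed as higher and 0.177% as lower.

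On days 1, 3 and 7 of Wy-14643, 5.94%, 5.56% and 6.57% of all probe sets passed as higher and 5.52%, 5.22% and 6.49% as lower. Of 65 pathway genes, 0 passed as higher on day 1 and on day 3, and 11 on day 7, while 8, 10 and 8 passed as lower. As deposited, day 1 had 0 lower, day 3 had 14 higher and 0 lower, and day 7 had 1 lower, so most of the lower calls depend on the normalisation. tRNA charging had 2 of 13 lower on day 1 (Nars1 at -0.29 ± 0.08 and Eprs1 at -0.24 ± 0.05), none on day 3 and 7 higher on day 7, among them Yars1 (1.13 ± 0.15), Iars1 (0.94 ± 0.18) and Eprs1 (0.67 ± 0.05). On day 7 the transporters Slc3a2 (1.44 ± 0.17) and Slc7a5 passed, with Slc7a5 at 0 in all vehicle rats, as did the hepatokine Fgf21 (1.91 ± 0.27) and Eif2s1 (0.76 ± 0.13). Factors downstream of ATF4 had 0 of 6 on day 7, and Atf3 differed by -0.12 ± 0.51. The chaperones had 5, 7 and 5 of 14 lower on days 1, 3 and 7, with Sdf2l1 at -0.86, -1.21 and -1.39. Ppp1r15b, a subunit of the phosphatase that restores eIF2α, was lower on each day (-0.60, -0.53 and -0.59). The 8 lower genes of day 1 became 4 without vehicle rat 22 and 3 without vehicle rat 24. The 10 of day 3 became 6 without vehicle rat 26 and 5 without rat 07 or rat 08, and the 8 of day 7 became 5 without vehicle rat 33, vehicle rat 35 or rat 13.

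In D3T-fed rats, where 5.22% of all probe sets passed as higher and 7.33% as lower, 2 of 35 pathway genes passed as higher, a share near that of all probe sets, Cth (1.34 ± 0.11) and Pdia3 (0.34 ± 0.07), and 5 as lower, among them the chaperones Hyou1 (-1.44 ± 0.29) and Canx (-1.22 ± 0.12), and Cebpb (-0.56 ± 0.06), while as deposited 0 were higher and 24 lower. The 2 became 1 without D3T rat 2 or without any control rat. After 3 weeks of PFOS 0 of 35 passed.

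Summed levels of markers of other liver cells differed between some of these groups. On day 7 of Wy-14643 the summed level of 6 Kupffer cell and macrophage markers was 1767 to 2334, against 3482 to 4431.5 in vehicle rats, and 3 of the 6 passed as lower. In PFOA rats the sum of 8 such markers was 3220.3 to 5020.4, against 6179 to 7831 in vehicle rats, with 1 of 8 lower. The sum of 6 endothelial markers was 2753 to 3189.6 in PFOA rats, against 4147 to 5616.5 in vehicle rats, with 2 of 6 lower. The erythroid sum of 2 markers was 5607 to 8057 on day 7 of Wy-14643, against 11118 to 14919 in vehicle rats, with both lower. The sum of 7 hepatocyte markers was 63102 to 64544.5 on day 7, against 66785.5 to 69285 in vehicle rats, and it was 44957 to 50352 in PFOA rats, against 54450.1 to 56287 in vehicle rats. On day 7 these markers went both ways, with Hnf4a higher (0.70 ± 0.16) and Apoa1 lower (-0.86 ± 0.12). In PFOA rats Apoa1 (-1.27 ± 0.26) and Cps1 (-0.22 ± 0.05) passed as lower. The sum of 4 bile duct markers was 747 to 874 in PFOA rats, against 292.2 to 433.6 in vehicle rats, with 1 of 4 higher. On day 7 of Wy-14643 that sum was 318.6 to 529.8, against 253.7 to 287.4 in vehicle rats, with Epcam higher (0.91 ± 0.20). The sum of 8 stellate cell and fibroblast markers was 2614 to 2852 on day 7 of Wy-14643, against 3283 to 3981 in vehicle rats, and 2019 to 2939.6 in PFOA rats, against 3036 to 3867 in vehicle rats, with 1 of 8 lower in each. No defining marker of these lists was at 0 on all arrays of these groups. In D3T-fed rats the endothelial sum was 75.9 to 174.3, against 230.8 to 268.7 on control diet, with 1 of 4 lower (Lyve1). Their stellate sum was 432.1 to 590.0, against 740.3 to 922.6, with 1 of 8 lower, Des at 0 in both groups and Pdgfrb at 0 on control diet. Their erythroid sum was 2169.6 to 2731, against 3168 to 4452, with 1 of 2 lower, and their Kupffer sum 867 to 1036, against 984 to 1286, with 1 of 4 lower (C1qb) and Csf1r at 0 on control diet. Their hepatocyte sum was 32232 to 33582, against 35063 to 35911, with Apoa1 and Serpina1 lower. Their part in the differences of Asns and the other genes was not tested.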

How the data were processed

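Intensities of 129 arrays were deposited without a log transform and include values below 0, and how the authors summarised and scaled them is not stated in any source at hand. The 7 genes and all lists were chosen with earlier results of these data known. In each study whose array medians ranged over more than 0.5 log2 units, arrays were quantile normalised, and the 3-week PFOS study, at 0.281, stayed as deposited. Values below 0 were set to 0, and log2(intensity + 16) of the resulting values was fitted by group within each study with limma 3.58.1 in R 4.3.3, with Benjamini-Hochberg adjustment over 8740, 31042 or 15866 probe sets and a threshold of 0.05. Control probe sets were left out, and no filter on dim probe sets was used. Probe sets with 1 gene symbol in the platform annotation numbered 7018, 20832 and 12789, those with several 308, 436 and 312, and those with none 1473, 9831 and 2822. Where a gene has several probe sets, the one with the highest mean is called the brightest. Named pathway genes were, in each list and comparison, up to 3 with the largest absolute difference among those that passed, and values of these are given elsewhere too. Groups and rats follow the labels, and p-values measure the spread between these arrays. The number of arrays limits the precision. Alternatives were median scaling, the deposited scale, other pseudocounts, leaving out the dimmest probe sets, trend and robust moderation, only the groups compared, a replicate block and each array left out.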

Additional observations from a re-analysis of the deposited data

Results flagged for a closer look

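A rat far from the others of its group was found in 5 of 100 combinations of a gene and a group of 4 or 5 rats, where chance gives about 1 in 20. Ddit3 was 3.6 in PCN female rat 5513 after 5 days, where the other rats had a median of 26.0. Trib3 was 0.0 in PCN female rat 5503 at 6 h, against a median of 27.2 in the others. Phgdh was 222.3 in vehicle female rat 1501 at 6 h, against a median of 111.0, and 339.4 in PB male rat 4015 after 5 days, against 191.4. Psat1 was 17.6 in control diet rat 3, against 20.8.

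Among 111 pairs of effects, 2 had every treated rat on one side of the vehicle mean on one day and on the other side on another day. Atf4 differed from vehicle by -0.57 on day 1 of Wy-14643 and by 0.44 on day 7. As deposited, its day 1 value was -0.21, and treated rats overlapped with vehicle rats. Psph differed by -0.52 on day 3 and by 0.48 on day 7. The fitted difference between days for Atf4, day 7 minus day 1, was 1.01 ± 0.25 (SE, 95% interval 0.47 to 1.54), did not pass limma's adjustment over the array, and is a description since the genes were chosen on these contrasts. The difference between days 3 and 7 for Psph was not tested, and as deposited its day 3 value was 0.06.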

How the results depend on the processing

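Phgdh in vehicle females minus males was -0.73 at 6 h, and its call was lost with only the groups compared (-0.733) and, a setting chosen after seeing the data, on the scale as deposited (-0.788). The call at 24 h was lost as deposited (-0.475), and 5 days passed with median scaling (-0.586). With 1 array left out these ran from -0.92 to -0.575 at 6 h and from -0.784 to -0.602 at 24 h.

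With pseudocounts of 1 and 64, Asns differed by 4.047 and 2.67 after PFOA, 1.647 and 0.783 after PFOS, 4.472 and 2.539 on day 7 of Wy-14643, and 1.233 and 0.444 after 3 weeks of PFOS. Under D3T it was 0.435 with 64. As deposited, Asns was -0.666 under D3T and 1.093 on day 3, and Phgdh by its brightest probe set -0.983 under D3T. With 1 array left out, Asns ran from -0.33 to 0.107 under PB and -0.3 to 0.136 under PCN in males at 6 h, and from 3.341 to 4.037 on day 7.

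Probe sets called as deposited numbered 916 over the 12 PB and PCN comparisons (main 3379), 4470 under D3T (1097), 1222 after PFOA (1879), 19 after PFOS (143), and 1045, 4941 and 1261 on days 1, 3 and 7 (1818, 1710 and 2073). With only the groups compared they numbered 1445 for PB and PCN, 75 after PFOS, 736 on day 3 and 970 on day 7. The 3-week PFOS study had 17 with a pseudocount of 1 and 25 without the dimmest probe sets. With 1 array left out the calls ran from 696 to 984 under D3T, 699 to 1599 after PFOA, 44 to 128 after PFOS, 1184 to 1421 on day 1 and 898 to 1763 on day 3, and the PB and PCN count was not recomputed.

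Other pathway genes under D3T as deposited were 0 higher and 24 lower. After PFOA, 4 were lower with median scaling and 3 as deposited, and after PFOS 1 was higher as deposited. On day 1, 1 was higher with median scaling or without the dimmest probe sets, and 0 were lower as deposited and 4 with only the groups compared. On day 3, 14 were higher and 0 lower as deposited, and 2 lower with only the groups compared. On day 7, 7 were higher and 5 lower with only the groups compared, and 1 lower as deposited. With 1 array left out they ran from 1 to 2 higher under D3T, 5 to 11 higher and 4 to 7 lower after PFOA, 3 to 8 lower on day 1, 0 to 1 higher and 5 to 12 lower on day 3, and 5 to 9 lower on day 7. The cause of these changes was not tested.

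The D3T and control diet rats share replicate numbers, and a replicate block gave 358 calls, with 1 pathway gene higher and 2 lower. Same-numbered deviations correlated from -0.205 to 0.266, over 0.1 in 1 of 4 pairs, so the numbers were not taken as pairs. Depth has no meaning for arrays, and dim probe sets near 0, such as Phgdh in vehicle rats, hold bounds rather than levels.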

Other observations

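In the PB and PCN study 35 genes of the lists were measured. In a single comparison, 0 to 4 of them passed as higher and 0 to 3 as lower. Over the 12 comparisons, 1.88% of all probe sets passed as higher and 1.34% as lower. The list genes of amino acid synthesis and uptake that passed are named here. The glycine transporter gene Slc6a9, at or near 0 in vehicle rats, was called higher in PB males at 6 h, 24 h and 5 days and in PB females at 24 h and 5 days (limma, adjusted p under the threshold of 0.05). It did not pass in PB females at 6 h. Slc3a2 was called higher in PB females at 24 h (0.97 ± 0.20). Glul, which makes glutamine synthetase, was lower under PB by -1.04 in males at 24 h, -0.92 in males at 5 days, -0.61 in females at 24 h and -0.91 in females at 5 days, and under PCN by -1.02 in females at 5 days. Cth, an enzyme of cysteine synthesis, was lower under PCN in males at 6 h (-1.47) and 5 days (-0.75) and in females at 5 days (-1.32). Got1, the cytosolic aspartate aminotransferase, was lower under PCN after 5 days in males (-1.31) and females (-0.89), and under PB in males at 24 h (-1.08).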
